A study of Homo sapiens with 61 samples.

Results

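BHLHE40 and 9 further genes of the circadian clock were followed through 14 groups of human neurons that had received the microtubule drug vincristine or its vehicle. The 10 genes (BHLHE40, BHLHE41, PER1, PER2, PER3, CRY1, CRY2, NR1D1, NR1D2 and DBP) were matched by symbol through GENCODE 29 to 10 of the 58440 gene identifiers in the tables, and all 10 passed the filter on low counts in both experiments. BHLHE40 had been picked out because it was among the strongest risers with vincristine in neurons carrying the control guide, so its values in that contrast are given below as a description, with no test. All cells came from WTC11, an established line of human induced pluripotent stem cells, and were turned into neurons of cortical type by a doxycycline-driven NGN2 cassette. In experiment 1 each of 4 lines, WT, DLK KO (gene MAP3K12), LZK KO (gene MAP3K13) and DLK LZK double KO, gave 4 untreated and 4 vincristine libraries. Cells of experiment 2 also held the machinery for CRISPR interference, which represses a gene at its promoter, and a lentiviral guide RNA (gRNA). Control gRNA (scrambled) and JUN gRNA gave 5 untreated and 5 vincristine libraries, and ATF2 gRNA gave 5 untreated and 4 vincristine libraries (replicates 2 to 5). At day 14 the cultures were given 5 nM vincristine, or DMSO in the groups called untreated, for 16 hours. DLK and LZK are related kinases of the axon damage response, and ATF2 and JUN are transcription factors of the bZIP class. How many clones stood for each knockout line, and whether replicates were separate differentiations, is not given in the sources used here, so p-values measure the spread between these libraries.

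The circadian clock is a loop of transcription and feedback. CLOCK (or NPAS2) and ARNTL, also called BMAL1, bind E-boxes and switch on the PER, CRY and NR1D genes, DBP, and the genes of BHLHE40 and BHLHE41. PER and CRY proteins return to inhibit CLOCK and ARNTL, NR1D1 and NR1D2 repress ARNTL through a further element called RRE, and BHLHE40 and BHLHE41 (DEC1 and DEC2) compete at E-boxes as repressors. DBP activates and NFIL3 represses genes with D-boxes. BHLHE40 is also known as a gene that answers to stress, low oxygen and neuronal activity outside the daily cycle. Each culture was harvested at a single time after treatment, so the data hold levels and no rhythm.

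Sequence before RefSeq starts is shown here for the members in which an E-box or a D-box was found. RefSeq windows on GRCh38.p14 were found for all 10 members (13 windows), and the 250 bases before each start were searched on both strands. An E-box (CACGTG) was found for 4 of the 10 members, BHLHE40, BHLHE41, PER1 and NR1D2, and in 6.34% of the 35116 RefSeq windows of the same length. A D-box (TTANGTAA) was found for 2 members, PER3 and NR1D2, against 1.98% of all windows, and the RRE core (AGGTCA) for 2 members, CRY2 and PER1, against 12.1%. No member window held TGACGTCA, the site of CREB and ATF factors (1.65% of all windows), TGANTCA, the AP-1 site (6.57%), or TGATGNAA, an ATF4 site (3.14%). With shares this low in all windows, finding none in 13 windows does not set the members apart. Sites beyond the 250 bases were not searched. A match shows only that the letters are there, and no matches within a member overlapped. The 5 stretches below run 5′ to 3′ on the strand of the gene, with E-boxes and D-boxes in capitals. They are 30 bases around the E-box of BHLHE40 (chr3:4979187-4979216, plus strand) and of BHLHE41 (chr12:26125068-26125097, minus strand), and the windows before RefSeq starts of PER3 (chr1:7784041-7784290, plus), NR1D2 (chr3:23945871-23946120, plus) and PER1 (chr17:8152436-8152654, minus). Against the gene spans of GENCODE 29, the window of PER3 lies upstream. Those of NR1D2 and PER1 precede starts inside the gene, and begin 611 and 3852 bases past its first base. The E-boxes of BHLHE40 and BHLHE41 also lie within the gene, so every E-box found for a member stood inside its annotated gene. The windows of BHLHE40, PER1, PER2 and CRY1 lie wholly inside the gene, beginning 71, 3852, 1242 and 30 bases past its first base. No base upstream of those genes was searched, so the search cannot tell whether they have sites there.
BHLHE40: tccaaCACGTGagactcatgtgatgaagcc
BHLHE41: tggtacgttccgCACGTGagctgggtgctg
PER3: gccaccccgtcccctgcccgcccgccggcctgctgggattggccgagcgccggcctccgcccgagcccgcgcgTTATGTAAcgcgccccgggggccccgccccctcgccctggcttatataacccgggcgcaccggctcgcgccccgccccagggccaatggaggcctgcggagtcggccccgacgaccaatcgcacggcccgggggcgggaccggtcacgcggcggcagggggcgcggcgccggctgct
NR1D2: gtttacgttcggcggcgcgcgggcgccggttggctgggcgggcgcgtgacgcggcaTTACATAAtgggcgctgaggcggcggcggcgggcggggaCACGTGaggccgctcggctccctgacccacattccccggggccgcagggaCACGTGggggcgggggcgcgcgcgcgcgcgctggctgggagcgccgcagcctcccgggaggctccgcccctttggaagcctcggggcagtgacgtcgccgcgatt
PER1: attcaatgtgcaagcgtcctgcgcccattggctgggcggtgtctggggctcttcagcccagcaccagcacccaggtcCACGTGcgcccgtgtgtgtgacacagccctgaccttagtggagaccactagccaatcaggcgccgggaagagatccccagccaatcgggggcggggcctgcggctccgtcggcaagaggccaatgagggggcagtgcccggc

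Libraries of experiment 1 held between 8.41 and 14.6 M counts (in megacounts, M, with a median of 10.3 M) and those of experiment 2 between 38.9 and 88.4 M (median 53.5 M), so low genes are measured more finely in experiment 2. Levels are CPM, counts per 1 M counts of the library after scaling with TMM factors, and are compared within an experiment only. All 9 neuron markers averaged over 1 CPM in both experiments, and their sum was at least 6590 CPM in every library. The 5 astrocyte markers summed to at most 8.42 CPM and the 4 stem cell markers to at most 71.8. In each experiment only 1 astrocyte marker and 2 stem cell markers averaged over 1 CPM, so these sums rest on few genes. The neuron sum was lower with vincristine in WT (8270 to 9670 against 10200 to 10800 CPM), Control gRNA (6590 to 6980 against 8890 to 9480) and JUN gRNA (7330 to 7580 against 8890 to 9430). The sum over 5 progenitor and cycling markers was higher with vincristine in WT (905 to 1930 against 710 to 754), Control gRNA (2410 to 2500 against 1300 to 1390), JUN gRNA (1640 to 1750 against 946 to 1070), DLK KO (485 to 596 against 204 to 267) and LZK KO (966 to 1150 against 504 to 656). It overlapped its untreated range in double KO (112 to 117 against 114 to 122) and ATF2 gRNA (669 to 777 against 717 to 795). Marker sums also differed between untreated lines. The stem cell sum was 61.8 to 69.9 CPM in double KO against 22.3 to 26.7 in WT, and 36.1 to 41.4 in ATF2 gRNA against 18.3 to 20.5 in Control gRNA, and the astrocyte sum in ATF2 gRNA was 6.56 to 8.42 against 1.74 to 2.57. Untreated double KO also had a higher neuron sum than untreated WT (13400 to 13800 against 10200 to 10800 CPM). Its progenitor and cycling sum was lower (114 to 122 against 710 to 754). The part of these shifts in the treated and untreated results was not tested, and in bulk RNA fewer cells of a type and less RNA per cell cannot be told apart. The targeted genes were lower in their lines without treatment, with MAP3K12 at 26.3 CPM in DLK KO against 91.0 in WT, MAP3K13 at 31.9 in LZK KO against 99.1, ATF2 at 0.526 in ATF2 gRNA against 129 in Control gRNA, and JUN at 2.87 in JUN gRNA against 88.5. WT vincristine replicate 4 stood apart from its group, with 10.3% of counts from mitochondrial genes against 6.11% to 7.56% in the other vincristine replicates and 289 CPM of JUN against 538 to 629, so values of WT with vincristine are given with and without it where they moved.

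BHLHE40 (ENSG00000134107.4, chr3:4979116-4985323), a repressor at E-boxes, was nearly silent in untreated WT neurons and stood 11.1-fold higher after vincristine. The 4 untreated WT libraries held 1.24, 1.12, 0.773 and 0.795 CPM, and the 4 vincristine libraries held 13.4, 9.35, 11.3 and 9.70 CPM. Every vincristine library lay far above every untreated library. The log2 fold change was 3.48 ± 0.24 (SE, 4 libraries against 4, edgeR quasi-likelihood test with Benjamini-Hochberg adjustment over all genes, adjusted p = 2.63e-14). Without WT vincristine replicate 4 it was 3.53.

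The response of BHLHE40 was smaller in each knockout line. In DLK KO the untreated libraries held 1.15, 1.40, 1.24 and 2.15 CPM and the vincristine libraries 3.11, 3.41, 4.11 and 2.95 CPM. These groups did not overlap, and the rise of 1.21 ± 0.26 on the log2 scale was called (edgeR, adjusted p = 0.00261). In double KO the untreated values of 1.56, 1.12, 1.09 and 0.652 CPM and the vincristine values of 1.99, 1.02, 1.65 and 0.845 CPM overlapped, and the log2 fold change of 0.29 ± 0.31 did not pass the test (edgeR, adjusted p = 0.865). In LZK KO the gene was close to the limit of detection. Its untreated libraries held 1, 5, 2 and 3 counts (0.114 to 0.601 CPM) and its vincristine libraries 9, 3, 4 and 6 counts (0.356 to 0.997 CPM). The fold change there, 1.01 ± 0.52, did not pass the test (edgeR, adjusted p = 0.339).

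Tested directly, the effect of vincristine on BHLHE40 minus that in WT was -2.27 ± 0.37 in DLK KO (95% interval of the difference -3.00 to -1.54, edgeR adjusted p = 2.98e-05) and -3.19 ± 0.41 in double KO (-3.99 to -2.38, adjusted p = 2.75e-07), on the log2 scale. The difference for LZK KO was -2.47 ± 0.66 (edgeR adjusted p = 0.0102) and lost its call without LZK KO untreated replicate 2, at -1.99. Between double KO and DLK KO the difference of -0.92 ± 0.41 (95% interval -1.72 to -0.12) did not pass the test (edgeR adjusted p = 0.239). The comparisons with WT share the 8 WT libraries. Untreated DLK KO also held less ATF2 than untreated WT (log2 difference -0.99 ± 0.11, edgeR, adjusted p = 5.75e-09). JUN was also lower without treatment, with log2 differences from WT of -1.34 ± 0.14 in DLK KO and -1.82 ± 0.14 in double KO (edgeR, adjusted p = 5.82e-09 and 7.83e-12). In LZK KO it was -0.27 ± 0.14, not called. The vincristine effect on JUN minus that in WT was 0.18 ± 0.19 in DLK KO, not called. In LZK KO it was -0.59 ± 0.19 and in double KO -1.64 ± 0.20, both called. The parts of ATF2 and JUN in the BHLHE40 values of these lines were not tested.

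In experiment 2 the level of BHLHE40 differed by guide before any drug was given. The gene stood at 1.58, 0.185, 0.784, 0.325 and 0.689 CPM in untreated Control gRNA and at 14.5, 15.5, 15.0, 14.6 and 13.3 CPM with vincristine, which is the contrast that chose the gene (log2 fold change 4.32 ± 0.29). In ATF2 gRNA the untreated libraries already held 8.14, 10.3, 9.22, 10.2 and 11.8 CPM. Every untreated ATF2 gRNA library thus lay above every untreated library of the other guides and below every vincristine library of Control gRNA. With vincristine the 4 ATF2 gRNA libraries held 9.58, 15.9, 13.7 and 14.8 CPM, which overlapped both their untreated group and the treated Control gRNA group, and the log2 fold change of 0.44 ± 0.25 did not pass the test (edgeR, adjusted p = 0.364).

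The untreated difference between ATF2 gRNA and Control gRNA was 3.76 ± 0.29 on the log2 scale, a 13.6-fold higher level, but it uses untreated Control gRNA libraries that had helped to choose the gene. Against untreated JUN gRNA, whose libraries the choice did not use, ATF2 gRNA was higher by 3.80 ± 0.29, a 13.9-fold difference (5 libraries against 5, edgeR, adjusted p = 5.85e-12). This comparison was added after the data had been seen. JUN gRNA held 0.627, 1.02, 0.739, 0.539 and 0.655 CPM without treatment, inside the range of Control gRNA, and 2.16, 3.25, 2.45, 3.28 and 1.32 CPM with vincristine. Those groups did not overlap, and the rise of 1.82 ± 0.29 was called (edgeR, adjusted p = 3.2e-05). JUN itself was at 21.0 ± 2.00 CPM (SD, n = 5) in untreated ATF2 gRNA, below the 88.5 ± 6.97 of untreated Control gRNA.

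Set beside Control gRNA, the vincristine effect on BHLHE40 differed by -3.88 ± 0.38 in ATF2 gRNA and by -2.50 ± 0.42 in JUN gRNA on the log2 scale, both descriptions because they contain the contrast that chose it. The difference between ATF2 gRNA and JUN gRNA, -1.37 ± 0.38, barely passed the test (edgeR, adjusted p = 0.0480) and lost its call in 18 of 25 alternatives. From lowest to highest mean, the groups of experiment 1 ran from LZK KO untreated (0.313 ± 0.217 CPM, SD, n = 4) through LZK KO with vincristine, WT untreated and both double KO groups to DLK KO untreated (1.48 ± 0.457), with overlap between each pair of neighbours. DLK KO with vincristine (3.4 ± 0.513) and WT with vincristine (10.9 ± 1.83) stood clear of the group below each. In experiment 2 untreated Control gRNA and JUN gRNA overlapped at the bottom, JUN gRNA with vincristine (2.49 ± 0.817, n = 5) stood clear, and untreated ATF2 gRNA (9.93 ± 1.37), treated ATF2 gRNA (13.5 ± 2.76, n = 4) and treated Control gRNA (14.6 ± 0.816) each overlapped the next.

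**Figure D1:**
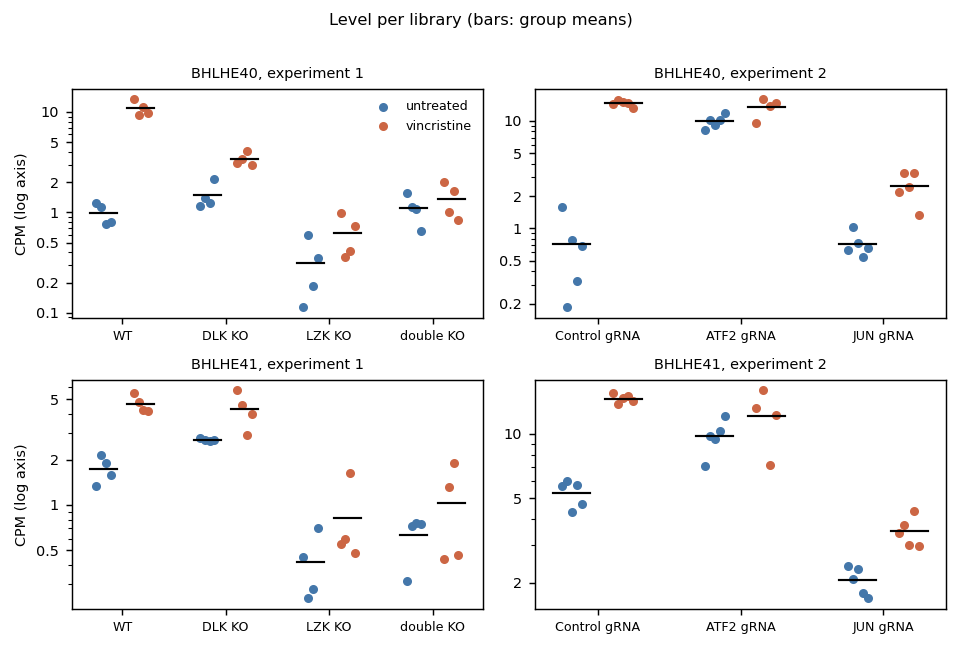
Levels of BHLHE40 and BHLHE41 in each library (CPM, log axis, points) by line or guide and treatment, with bars at group means. BHLHE40 reaches 9.35 to 13.4 CPM in vincristine-treated WT and 8.14 to 11.8 CPM in untreated ATF2 gRNA, and stays at or below 1.99 CPM in double KO.

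BHLHE41 (ENSG00000123095.5, chr12:26120026-26125127), the close relative and fellow E-box repressor, rose with vincristine in WT, Control gRNA and JUN gRNA. In WT it went from 1.34, 2.14, 1.90 and 1.59 CPM to 5.47, 4.77, 4.26 and 4.21 CPM. The groups were apart, and the log2 fold change was 1.41 ± 0.27 (edgeR, adjusted p = 8.97e-05), or 1.45 without WT vincristine replicate 4. In Control gRNA it went from 4.28 to 6.01 CPM over 5 untreated libraries to 13.8 to 15.5 CPM over 5 vincristine libraries, a log2 fold change of 1.48 ± 0.15 (edgeR, adjusted p = 2.04e-11). JUN gRNA stood lower both before (1.69 to 2.41 CPM) and after vincristine (2.99 to 4.34 CPM), with a rise of 0.76 ± 0.16 (edgeR, adjusted p = 0.000418).

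The untreated level of BHLHE41 was higher with 1 guide and lower with the other. ATF2 gRNA held 7.10, 9.76, 9.44, 10.3 and 12.1 CPM without treatment, above all 5 untreated Control gRNA libraries (0.89 ± 0.15 on the log2 scale, edgeR, adjusted p = 2.51e-06). JUN gRNA lay below all of them (-1.34 ± 0.16, adjusted p = 1.11e-08). BHLHE41 in ATF2 gRNA minus JUN gRNA was 2.23 ± 0.16 (edgeR, adjusted p = 2.59e-16).

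With vincristine ATF2 gRNA held 13.2, 16.0, 7.15 and 12.3 CPM, and the log2 fold change of 0.32 ± 0.15 did not pass the test. It was called without ATF2 gRNA vincristine replicate 4, the lowest of that group. The effect minus that in Control gRNA was -1.16 ± 0.21 in ATF2 gRNA and -0.72 ± 0.22 in JUN gRNA (edgeR, adjusted p = 4.3e-05 and 0.0162). Both differences share the 10 Control gRNA libraries. In experiment 1 the effects for DLK KO (0.67 ± 0.26), LZK KO (1.01 ± 0.51) and double KO (0.73 ± 0.40) did not pass the test, except that DLK KO was called when its own 2 groups were fitted alone. Their differences from WT, from -0.74 to -0.40, did not pass either. The approximate 95% interval for DLK KO minus WT ran from -1.48 to -0.01, with an unadjusted edgeR p of 0.0557. SSPN shares 162 bases (4.1%) of the exons of BHLHE41 on the other strand. It stood at 2.23 CPM in untreated and 5.47 in treated Control gRNA and at 1.29 in untreated JUN gRNA, and its untreated level was 0.46 in LZK KO and 0.569 in double KO against 1.27 in WT. In WT and JUN gRNA, where BHLHE41 was called higher with vincristine, SSPN went from 1.27 to 1.49 CPM and from 1.29 to 1.43. Without WT vincristine replicate 4 the treated WT value was 1.34. The strand setting of the counting is not given in the sources used here, and the part of SSPN in the BHLHE41 counts was not tested.

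The PER genes encode the feedback partners of the CRY proteins, and PER3 (ENSG00000049246.14, chr1:7784320-7845177) was the member that fell most with vincristine in WT and in Control gRNA. In WT it went from 25.6, 21.2, 22.0 and 21.7 CPM to 6.28, 6.65, 5.56 and 6.25 CPM. The groups were far apart, and the log2 fold change was -1.87 ± 0.12 (edgeR, adjusted p = 8.65e-15), or -1.88 without WT vincristine replicate 4. In DLK KO it stood at 14.3, 11.9, 13.7 and 17.3 CPM untreated and at 13.2, 13.1, 13.5 and 14.9 CPM with vincristine, which overlapped (-0.06 ± 0.12). In double KO both groups lay low, at 7.49, 8.10, 6.88 and 5.87 CPM untreated and 5.85, 6.90, 5.72 and 7.32 CPM with vincristine (-0.13 ± 0.13).

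LZK KO gave a smaller fall of PER3, from 12.1 to 13.2 CPM down to 6.65 to 10.9 CPM (-0.58 ± 0.13, edgeR, adjusted p = 0.00434), which lost its call when its own 2 groups were fitted alone. The effect differed from WT by 1.81 ± 0.17 (DLK KO), 1.29 ± 0.18 (LZK KO) and 1.74 ± 0.18 (double KO) (edgeR, adjusted p = 6.17e-10, 2.8e-06 and 4.59e-09). The untreated knockout lines already stood below untreated WT, with log2 differences of -0.67 ± 0.11 for DLK KO, -0.83 ± 0.11 for LZK KO and -1.67 ± 0.12 for double KO, all called by edgeR. Untreated double KO (7.08 ± 0.952 CPM, SD, n = 4) overlapped treated WT (6.19 ± 0.455).

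In experiment 2 PER3 went from 6.15, 6.19, 7.99, 7.81 and 7.34 CPM to 3.88, 3.42, 4.06, 3.14 and 3.18 CPM in Control gRNA (-1.0 ± 0.15, edgeR, adjusted p = 2.35e-07). JUN gRNA also gave a fall, from 7.41 to 8.94 CPM down to 3.25 to 6.91 CPM (-0.72 ± 0.14, edgeR, adjusted p = 0.00019), while ATF2 gRNA went from 4.18 to 6.63 CPM to 3.82 to 5.33 CPM (-0.21 ± 0.16, not called). The effect in ATF2 gRNA differed from Control gRNA by 0.79 ± 0.21 (edgeR, adjusted p = 0.00535). For JUN gRNA the difference was 0.28 ± 0.20, with a 95% interval of -0.12 to 0.68, and did not pass the test. In the annotation 868 bases (10.7%) of the exons of PER3 overlap UTS2 on the other strand, and UTS2 was at or below 0.572 CPM in experiment 1. A further gene on the other strand overlaps 482 bases (5.95%) of these exons, and its level was not examined.

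PER1 and PER2 had smaller fold changes. PER1 (ENSG00000179094.15), an early responder of the clock to outside signals, held 25.6, 29.8, 28.4 and 26.8 CPM in untreated WT and 40.6, 36.7, 40.3 and 21.0 CPM with vincristine. The first 3 treated replicates lay above all untreated ones and replicate 4 lay below them. The log2 fold change of 0.33 ± 0.12 just passed the test (edgeR, adjusted p = 0.0415) and lost its call in 8 of 14 alternatives, but it was 0.50 without WT vincristine replicate 4 (adjusted p = 2.56e-05). The effect on PER1 in double KO differed from WT by -0.50 ± 0.18 (edgeR, adjusted p = 0.0412), a call lost in 13 of 22 alternatives, and by -0.67 without that library. In DLK KO, PER1 held 20.8, 24.3, 25.9 and 23.9 CPM untreated and 31.6, 32.9, 26.7 and 33.2 CPM with vincristine. These groups did not overlap, but the log2 fold change of 0.39 ± 0.13 did not pass the test (edgeR, adjusted p = 0.0567) and was called in 4 of 14 alternatives. The effect in double KO minus that in DLK KO was -0.56 ± 0.18 (95% interval -0.91 to -0.21, edgeR adjusted p = 0.115), called in 2 of 22 alternatives.

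PER2 (ENSG00000132326.11) was called for vincristine in Control gRNA, from 11.1, 12.5, 12.5, 13.1 and 10.1 CPM to 10.1, 8.80, 9.49, 8.95 and 10.6 CPM. These groups overlapped, and the fall of 0.31 ± 0.11 on the log2 scale (edgeR, adjusted p = 0.0280) was lost in 5 of 16 alternatives, each leaving out 1 Control gRNA library. It was not called in the other 6 lines and guides. The effect minus that in Control gRNA was 0.36 ± 0.16 in ATF2 gRNA (95% interval 0.04 to 0.68, edgeR adjusted p = 0.123) and 0.23 ± 0.16 in JUN gRNA (-0.08 to 0.54, adjusted p = 0.391), so a difference between guides did not pass the test. That of ATF2 gRNA was called without its vincristine replicate 2, at 0.44.

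**Figure D2:**
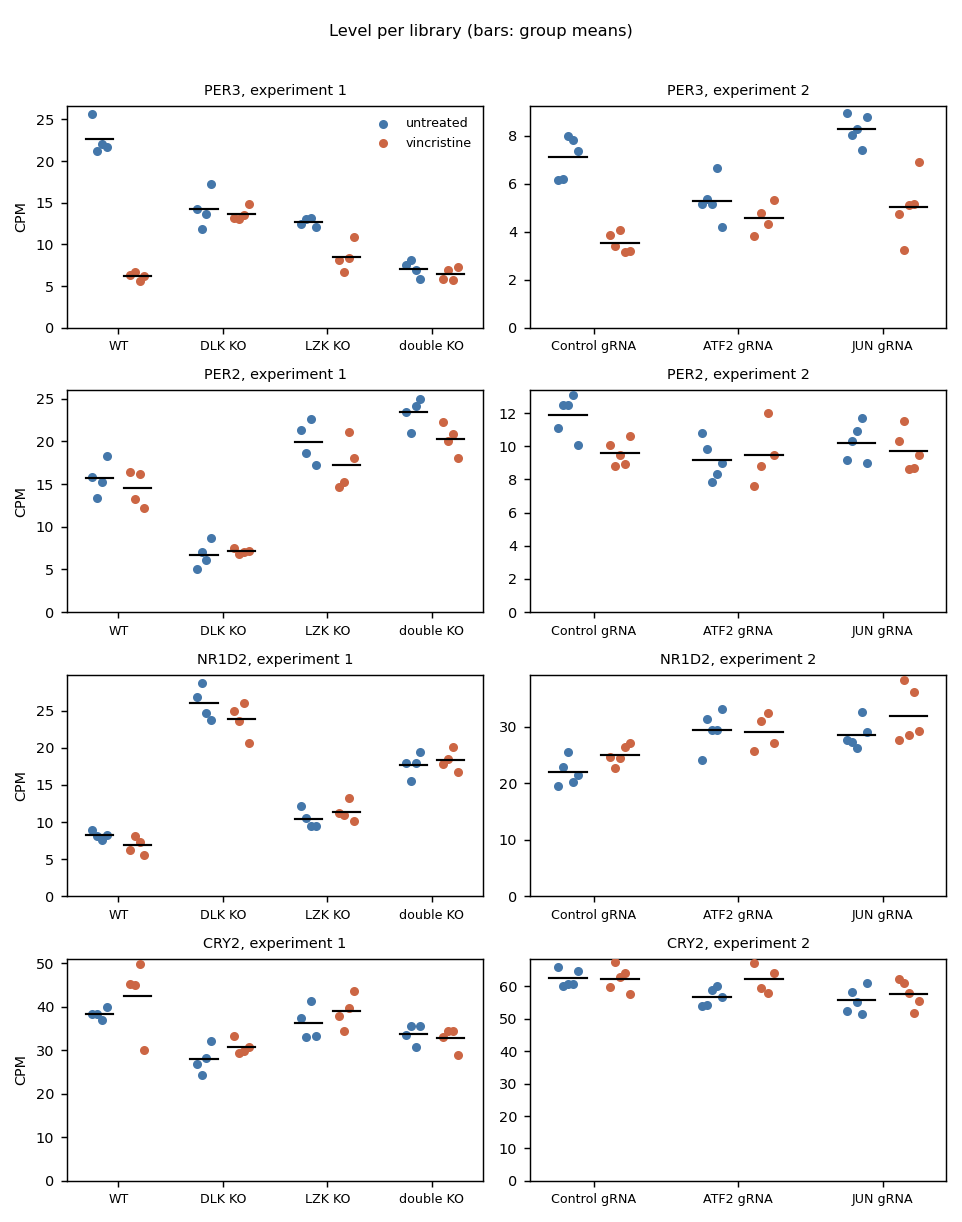
Levels of PER3, PER2, NR1D2 and CRY2 in each library (CPM, linear axis from 0, points) by line or guide and treatment, with bars at group means. PER3 is at 21.2 CPM or more in each untreated WT library and at 6.65 CPM or less in each vincristine WT library. NR1D2 is highest in DLK KO within experiment 1, and PER2 is lowest there.

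The CRY genes encode the repressors that pair with PER proteins. CRY1 (ENSG00000008405.11) went from 18.6, 18.5, 16.7 and 16.8 CPM to 12.3, 11.7, 13.4 and 15.2 CPM in WT. The groups did not overlap, and it fell by 0.43 ± 0.10 on the log2 scale (edgeR, adjusted p = 0.0016), or -0.50 without WT vincristine replicate 4. In the other 6 lines and guides its log2 fold change ran from -0.22 to -0.04 with no call. The effect minus that in WT was 0.38 ± 0.15 in DLK KO (95% interval 0.10 to 0.67), 0.24 ± 0.15 in LZK KO (-0.05 to 0.53) and 0.36 ± 0.14 in double KO (0.08 to 0.64), none called (edgeR adjusted p = 0.0616, 0.306 and 0.0733). Without WT vincristine replicate 4 those of DLK KO and double KO were called, at 0.46 and 0.43 (edgeR adjusted p = 0.0252 and 0.0219), and LZK KO was at 0.32. JUN gRNA held 17.7 to 20.3 CPM of CRY1 untreated and 15.9 to 17.1 CPM with vincristine. Its groups did not overlap, and its log2 fold change of -0.22 ± 0.08 (edgeR, adjusted p = 0.067) was called in 4 of 16 alternatives. CRY2 (ENSG00000121671.11) held 38.2, 38.4, 36.9 and 39.9 CPM in untreated WT and 45.1, 44.9, 49.7 and 30.1 CPM with vincristine. Replicate 4 was again the lowest, and the fold change of 0.15 ± 0.10 was not called with it and was 0.28 without it (edgeR, adjusted p = 0.00965). The effect on CRY2 in double KO minus that in WT went from -0.19 (edgeR, adjusted p = 0.402) to -0.32 without that library (adjusted p = 0.0414).

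NR1D1 and NR1D2, the nuclear receptors that repress ARNTL, behaved differently from each other. NR1D1 (ENSG00000126368.5) was low in experiment 1, at 1.72, 2.14, 1.69 and 1.29 CPM in untreated WT and 1.01, 0.719, 0.782 and 0.216 CPM with vincristine (2 to 10 counts). The groups did not overlap, and the log2 fold change was -1.29 ± 0.32 (edgeR, adjusted p = 0.00212), or -1.03 without WT vincristine replicate 4. In experiment 2, at 3.51 to 4.77 CPM on average, no vincristine effect on NR1D1 passed the test, and in Control gRNA the 95% interval ran from -0.41 to 0.29. The effect in DLK KO differed from that in WT by 1.27 ± 0.40 (edgeR, adjusted p = 0.0235), a call lost with no filter and when WT untreated replicate 2 or WT vincristine replicate 4 (1.01) was left out. In LZK KO the difference was 1.35 ± 0.50 (95% interval 0.36 to 2.34, edgeR adjusted p = 0.0751), called in 3 of 22 alternatives. That of double KO was 0.85 ± 0.43 (0.00 to 1.69, edgeR adjusted p = 0.177), not called. NR1D1 shares 263 bases (9.49%) of its exons with THRA on the other strand, which stood at 73.3 CPM in untreated WT, and the strand setting of the counting is not given in the sources used here. NR1D2 (ENSG00000174738.12) was not called for vincristine in any of the 7 lines and guides, where its fold changes ran from -0.25 to 0.19.

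DBP (ENSG00000105516.10), the activator at D-boxes, was also low, at 2.68, 2.05, 3.51 and 3.08 CPM in untreated WT and 2.23, 1.44, 1.74 and 1.40 CPM with vincristine. The groups overlapped, and the log2 fold change of -0.74 ± 0.26 was called (edgeR, adjusted p = 0.0280) but lost its call in 5 of 14 alternatives, to -0.67 without WT vincristine replicate 4. SPHK2, which shares 661 bases (10.1%) of the exons of DBP on the other strand, also stood lower with vincristine in WT, at 14.3 ± 5.13 against 25.6 ± 1.58 CPM (SD, n = 4), or 16.8 ± 1.47 without replicate 4 (n = 3). In experiment 2 the effect on DBP was -0.45 ± 0.20 in Control gRNA and 0.38 ± 0.20 in ATF2 gRNA, neither called, and the difference of 0.83 ± 0.28 was called (edgeR, adjusted p = 0.0296) but lost in 8 of 25 alternatives.

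**Figure D3:**
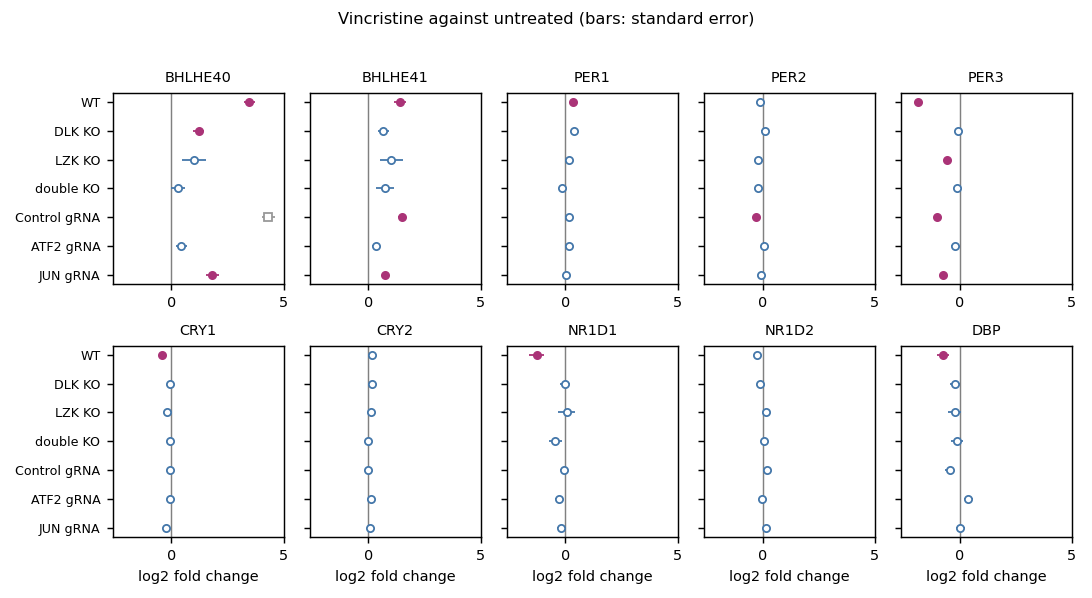
Log2 fold change of each member with vincristine (x axis) in each line or guide (rows), with bars for the standard error. Filled points passed the adjusted threshold, open circles did not, and the grey square marks BHLHE40 in Control gRNA, which was chosen from that contrast. BHLHE40 lies to the right of the other members in WT, and PER3 lies to the left of them.

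Over the 10 members, 7 were called for vincristine in WT (3 higher, 4 lower), where 30.2% of all genes tested were called, 15.7% higher and 14.5% lower. In DLK KO 1 was called, BHLHE40, higher (background 6.53% called, 4.24% higher and 2.28% lower), and in LZK KO 1, PER3, lower (3.88% called, 2.27% higher and 1.61% lower). In double KO 0 were called by edgeR, 0 had an unadjusted p under 0.05 and DESeq2 called 0, where 0.0658% of all genes were called (0.00548% higher and 0.0603% lower). In Control gRNA 4 were called, 2 higher and 2 lower, with BHLHE40 among them through the rule (35.3% called, 17.1% higher and 18.1% lower). In ATF2 gRNA 0 were called by edgeR and by DESeq2, 3 had an unadjusted p under 0.05, and 6.1% of all genes were called (1.88% higher and 4.22% lower). In JUN gRNA 3 were called, 2 higher and 1 lower (15.9% called, 7.58% higher and 8.31% lower). The median log2 fold change over the members was -0.18 in WT against 0.00 over all genes tested, -0.09 against -0.01 in double KO and 0.09 against -0.02 in ATF2 gRNA.

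The difference in effect from WT was called for 3 members in DLK KO (background 19.4%), 2 for LZK KO (12.4%) and 3 for double KO (19.4%). That of double KO was 5 without WT vincristine replicate 4, and leaving out LZK KO untreated replicate 2 gave 1 for that line. Between double KO and DLK KO, edgeR called 0 of 10, with 2 at an unadjusted p under 0.05 (background 1.14%), and DESeq2 called 0 of the 6 to which it gave an adjusted p. Against Control gRNA the effect differed for 4 members in ATF2 gRNA (20.6%) and 2 in JUN gRNA (15.8%), with BHLHE40 counted in both through the rule, while ATF2 gRNA against JUN gRNA gave 1 (2.83%).

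Without any treatment, 6 of the 10 members were called in DLK KO (3 higher, 3 lower), 6 in LZK KO (2 higher, 4 lower) and 5 in double KO (3 higher, 2 lower) against WT, where 34.5%, 33.9% and 45.7% of all genes were called. The comparisons share the 4 untreated WT libraries. NR1D2 had the largest difference upwards in DLK KO and double KO, from 8.89, 8.11, 7.66 and 8.25 CPM in WT to 26.9, 28.7, 24.7 and 23.7 CPM in DLK KO (1.66 ± 0.11, edgeR, adjusted p = 4.18e-15) and 18.0, 15.6, 17.9 and 19.5 CPM in double KO (1.11 ± 0.11, adjusted p = 1.44e-10). Neither line overlapped WT. In LZK KO it was 0.34 ± 0.12, a call lost in 6 of 14 alternatives. Among the 29 tested genes within 5 Mb of NR1D2 the medians were 0.10, 0.20 and 0.00 in DLK KO, double KO and LZK KO, and 7, 13 and 7 of them were called higher.

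PER2 was lower in untreated DLK KO, at 5.07, 7.08, 6.10 and 8.71 CPM against 15.8, 13.4, 15.2 and 18.3 CPM in WT. The groups did not overlap, and the log2 difference was -1.22 ± 0.14 (edgeR, adjusted p = 4.83e-09). Of 56 tested genes within 5 Mb of PER2, 45 were called lower and 0 higher, with a median of -1.02. In steps of 10 Mb along chromosome 2, the 12 steps from 130 Mb to the end of the chromosome had medians between -1.06 and -0.53, and the 13 steps before 130 Mb had medians between -0.03 and 0.12. The value of -0.53 rests on 14 genes, and without that step the range is -1.06 to -0.63. ATF2, which lies in the same stretch, was at 71.0 ± 5.93 CPM in untreated DLK KO against 141 ± 14.0 in WT (SD, n = 4). In LZK KO and double KO the median over the neighbours of PER2 was 0.07 and 0.05. PER2 in these lines was higher than in WT, at 17.3 to 22.6 CPM in LZK KO (0.36 ± 0.12, called, lost in 4 of 14 alternatives) and 21.0 to 25.0 CPM in double KO (0.58 ± 0.12, edgeR, adjusted p = 0.000127). The part of this stretch in the PER2 level of DLK KO was not tested.

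BHLHE41 was lower in untreated LZK KO (0.241 to 0.706 CPM, 2 to 6 counts) and double KO (0.312 to 0.755 CPM) than in WT (1.34 to 2.14 CPM), with log2 differences of -2.05 ± 0.43 and -1.42 ± 0.37 (edgeR, adjusted p = 0.000218 and 0.00163). BHLHE40 was lower in LZK KO only among these lines by the test against WT (-1.64 ± 0.45, adjusted p = 0.00435), on 1 to 5 counts per library against 8 to 13. Leaving out LZK KO untreated replicate 1 gave 3 members for that line in place of 6. DLK KO had higher NR1D1 (0.74 ± 0.25) and DBP (0.69 ± 0.22) and lower CRY2 (-0.46 ± 0.11), while LZK KO had lower NR1D1 (-1.01 ± 0.32), and double KO had higher CRY1 (0.29 ± 0.10), all called with edgeR. NR1D1 in LZK KO lost its call without untreated replicate 1 or 2 of that line. NR1D1 in DLK KO lost it without WT untreated replicate 4, DBP in DLK KO without WT untreated replicate 2, and CRY1 in double KO without its untreated replicate 4.

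**Figure D4:**
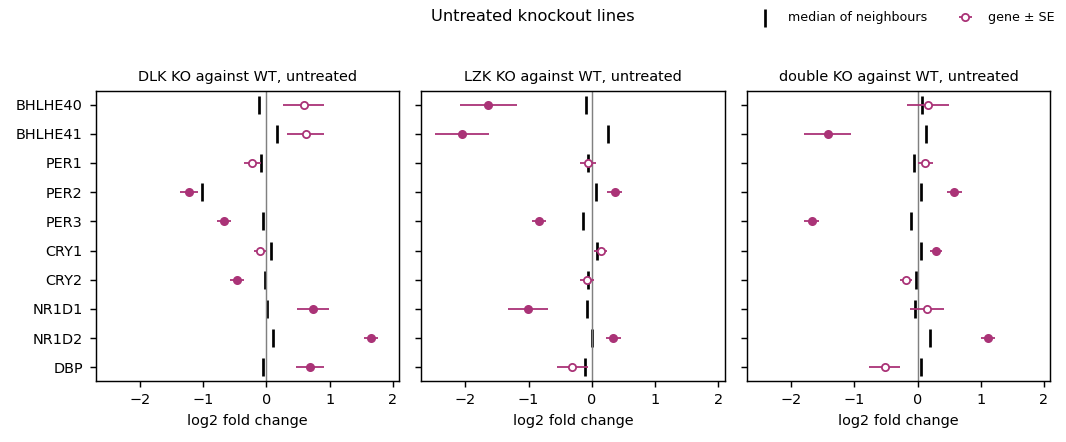
Log2 difference of each member in the untreated knockout lines against untreated WT (circles, bars for the standard error, filled where the adjusted threshold was passed), with a black tick at the median over tested genes within 5 Mb. PER2 in DLK KO lies at -1.22 beside a neighbour median of -1.02, while NR1D2 lies at 1.66 beside 0.10.

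Among the untreated guide lines 7 members were called in ATF2 gRNA against Control gRNA (3 higher, 4 lower, background 39.9%, with BHLHE40 counted through Control gRNA libraries that the rule used), 3 in JUN gRNA against Control gRNA (1 higher, 2 lower, background 11.2%) and 4 between ATF2 gRNA and JUN gRNA (2 higher, 2 lower, background 34.8%). Besides BHLHE40 and BHLHE41, NR1D2 was higher than in Control gRNA in ATF2 gRNA (0.43 ± 0.09) and JUN gRNA (0.38 ± 0.09), from 19.6 to 25.5 CPM up to 24.2 to 33.1 and 26.2 to 32.7 CPM (edgeR, adjusted p = 0.000104 and 0.00234). ATF2 gRNA had lower PER2 (-0.38 ± 0.11), PER3 (-0.42 ± 0.14), CRY1 (-0.26 ± 0.08) and CRY2 (-0.14 ± 0.06). PER3 lost its call without Control gRNA untreated replicate 3 or ATF2 gRNA untreated replicate 5, CRY1 without ATF2 gRNA untreated replicate 1, and CRY2 in 10 of 16 alternatives. CRY2 was also lower in JUN gRNA (-0.17 ± 0.06), a call lost in 8 of 16 alternatives.

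Of 18 other clock genes in a list, 16 were tested in experiment 1 and 17 in experiment 2. With vincristine 6 of 16 were called in WT (3 higher, 3 lower, background 30.2%), 5 of 17 in Control gRNA (3 higher, 2 lower, background 35.3%), 3 in DLK KO (1 higher, 2 lower, background 6.53%), 3 in LZK KO (all lower, background 3.88%) and 2 in JUN gRNA (both higher, background 15.9%). In double KO and ATF2 gRNA (background 0.0658% and 6.1%) edgeR called 0, with 1 and 0 at an unadjusted p under 0.05, and DESeq2 called 0 of those to which it gave an adjusted p. NFIL3, the D-box repressor, rose from 25.5 ± 2.22 to 36.6 ± 4.29 CPM in WT (SD, n = 4; 0.52 ± 0.09, edgeR, adjusted p = 1.64e-05) and from 23.1 ± 1.29 to 44.1 ± 2.52 CPM in Control gRNA (n = 5; 0.94 ± 0.07, adjusted p = 3.75e-15). TEF, a D-box activator related to DBP, fell by 0.80 ± 0.16 in WT (from 8.28 to 4.74 CPM) and by 0.51 ± 0.09 in Control gRNA (from 15.0 to 10.6 CPM). The vincristine effect on NFIL3 minus that in Control gRNA was -0.80 ± 0.10 with ATF2 gRNA and -0.86 ± 0.10 with JUN gRNA, while the effect minus that in WT was -0.47, -0.36 and -0.47 in DLK KO, LZK KO and double KO, all called by edgeR. Without WT vincristine replicate 4 the WT values were 0.45 for NFIL3 and -0.71 for TEF, both still called, and the difference of LZK KO for NFIL3 was -0.29 and no longer called (edgeR, adjusted p = 0.0964). RORA, an activator at the RRE, rose by 0.61 ± 0.10 in Control gRNA and was at 0.10 ± 0.07 in WT, not called. It fell in DLK KO (-0.24 ± 0.07, edgeR adjusted p = 0.0378) and LZK KO (-0.27 ± 0.07, adjusted p = 0.0299). The effect on RORA minus that in WT was -0.34 ± 0.10 in DLK KO and -0.37 ± 0.10 in LZK KO, and minus that in Control gRNA it was -0.68 ± 0.15 for ATF2 gRNA and -0.87 ± 0.14 for JUN gRNA, all called by edgeR.

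The activators at the head of the loop and the PER kinases lie outside the rule for naming genes of the list and were chosen after their values were seen. CLOCK was called lower with vincristine in WT (-0.39 ± 0.07, or -0.46 without WT vincristine replicate 4), DLK KO (-0.30 ± 0.07) and LZK KO (-0.27 ± 0.07), and at 0.04 ± 0.08 in Control gRNA it was not called. ARNTL had no vincristine call in WT (0.11 ± 0.16) or Control gRNA (0.19 ± 0.10). In untreated DLK KO, however, ARNTL was at 13.1 ± 1.44 CPM against 4.23 ± 0.378 in WT (SD, n = 4; 1.64 ± 0.14, edgeR, adjusted p = 4.75e-12), and NPAS2, the partner that can replace CLOCK, was higher by 0.86 ± 0.23. In untreated LZK KO both were lower, with log2 differences of -0.62 ± 0.18 and -1.10 ± 0.30, called by edgeR. In all, 9 of the 16 were called in untreated DLK KO (7 higher, 2 lower), 7 in LZK KO (3 higher, 4 lower) and 7 in double KO (6 higher, 1 lower), against 34.5%, 33.9% and 45.7% of all genes. In experiment 2, 12 of 17 were called in untreated ATF2 gRNA (6 higher, 6 lower) and 2 in JUN gRNA (both higher), against 39.9% and 11.2%. The kinase genes CSNK1D and CSNK1E, whose products mark PER proteins for breakdown, were lower in untreated ATF2 gRNA (-0.29 ± 0.04 and -0.38 ± 0.05) and in untreated DLK KO (-0.28 ± 0.10 and -0.43 ± 0.10), all called. With vincristine CSNK1E was called higher in DLK KO (0.54 ± 0.10), and its effect in double KO minus DLK KO was -0.56 ± 0.14, also called. CSNK1D in DLK KO was at 0.32 ± 0.10, not called. In WT CSNK1D and CSNK1E were at 0.14 and 0.22 with vincristine, not called. Without WT vincristine replicate 4 they were at 0.29 and 0.35, both called. Their effects in double KO minus WT went from -0.26 and -0.24, not called, to -0.41 and -0.37, both called.

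Other settings in which BHLHE40 is known to rise were read from 3 further lists. Of 12 early genes of CREB signalling, 10 were tested, and 8 were called in WT with vincristine (7 higher, 1 lower, median 1.10) and 8 in Control gRNA (6 higher, 2 lower, median 0.66). In untreated ATF2 gRNA against Control gRNA 7 were called (6 higher, 1 lower, median 0.98), in untreated JUN gRNA 4 (all higher, median 0.16) and in untreated DLK KO against WT 5 (all higher, median 0.52). In untreated LZK KO against WT 3 were called (2 higher, 1 lower, median 0.23). In untreated double KO 4 were called (2 higher, 2 lower, median -0.01). With vincristine 8 were called in JUN gRNA (6 higher, 2 lower, median 0.56) and 0 in double KO (median 0.09). Of 10 hypoxia targets, 4 of 8 tested were called in WT (2 higher, 2 lower, median 0.25) and 6 of 9 in Control gRNA (4 higher, 2 lower, median 0.36), and 4 of 9 in untreated ATF2 gRNA (2 higher, 2 lower, median 0.06). In untreated DLK KO 5 of 8 were called (1 higher, 4 lower, median -0.67). Untreated LZK KO had the same counts with a median of -0.39, and untreated double KO had 4 (1 higher, 3 lower, median -0.44). Of 8 glucocorticoid targets, 4 of 5 tested were called in WT (2 higher, 2 lower, median 0.38) and 5 of 7 in Control gRNA (3 higher, 2 lower, median 0.27), and 4 of 7 in untreated ATF2 gRNA (1 higher, 3 lower, median -0.58). The median over all genes tested lay between -0.01 and 0.03 in these comparisons. With vincristine, 30.2% of all genes were called in WT, 35.3% in Control gRNA, 15.9% in JUN gRNA and 0.0658% in double KO. At the last of these shares, finding 0 of 10 early genes called does not set that list apart. For untreated cells the shares were 45.7% (double KO), 33.9% (LZK KO), 39.9% (ATF2 gRNA), 34.5% (DLK KO) and 11.2% (JUN gRNA).

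The genes whose group means ran most like those of BHLHE40 were sought among 12338 genes with a mean log2 CPM of at least 1, over 14 group means centred within each experiment. These were RMND5A (Pearson r = 0.952), GSN (0.942), STX3 (0.942), AKNA (0.942) and the noncoding RNA SNHG7 (0.934). The points fall in 2 experiments and groups of a line share their cells, so the values describe likeness only. AKNA had group means in log2 CPM of 3.05 and 5.15 in WT (untreated and vincristine), 2.23 and 5.02 in Control gRNA, 4.47 and 5.13 in ATF2 gRNA and 2.53 and 3.92 in JUN gRNA. Among the members, BHLHE41 was the most like BHLHE40 (r = 0.84) and CRY1 had the lowest value (-0.67). The nearest genes to BHLHE41 and PER3 were PPL (0.940) and INSIG1 (0.964, among 12337 genes), the latter a brake on sterol synthesis that went from 7.55 to 5.45 in WT and from 7.55 to 5.93 in Control gRNA (mean log2 CPM).

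Per kilobase of exon, BHLHE40 was the lowest of the 10 members in untreated WT (0.256 CPM per kilobase) and untreated Control gRNA (0.186). It was the third highest in WT with vincristine (2.84), after CRY2 (6.84) and PER1 (4.96), and the fourth highest in Control gRNA with vincristine (3.81). PER3 went from rank 4 in untreated WT (2.79 CPM per kilobase) to rank 8 (0.764). CRY2 and PER1 held the first and second places in both of those WT groups.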

How the data were processed

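Gene counts of 61 libraries from 2 experiments were analysed. The authors deposited raw counts per gene. Per the submitters' processing notes they used cutadapt 3.4, STAR and featureCounts of Subread 2.0.1 on GRCh38. The strand setting is not given, nor whether counting included marked duplicates, in the sources used here. GENCODE 29 gave the symbols of 58320 of 58440 identifiers. Each experiment was fitted alone over all its groups with edgeR 4.0.16 (R 4.3.3): filterByExpr, TMM, robust quasi-likelihood, Benjamini-Hochberg adjustment over 18235 and 20759 genes, threshold 0.05, for 19 comparisons and 1 added later. Intervals are the estimate ± 1.96 SE, a normal approximation that is somewhat narrow for this test. An interval can therefore exclude 0 where the unadjusted p is above 0.05. On simulated counts 200 genes were changed 2-fold. Of those that passed the filter, the fit recovered 72.4% for WT (7 false calls) and 68.9% for Control gRNA (12 false calls). Alternatives were DESeq2 1.42.0, RLE factors, other filters, a replicate block, a fit of just the compared groups, and each library left out in turn. No replicates were copies: the lowest chi-square per degree of freedom was 1.58 in experiment 1 and 5.2 in experiment 2. The members and gene lists were chosen with earlier results of these data known. Named genes are the 10 members, the targeted genes, genes of the clock list called for vincristine in WT or Control gRNA with a log2 fold change of 0.5 or more in size, and the genes most like BHLHE40, BHLHE41 and PER3. Clock activators, PER kinases and genes that overlap a member were named after their values were seen. Figures used matplotlib 3.10.9.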

Additional observations from a re-analysis of the deposited data

Results flagged for a closer look

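In 5 of 140 group levels tested, 1 library stood apart from the rest of its group, and chance alone marks about 1 in 20 such groups. These were BHLHE41 in LZK KO vincristine replicate 3 (1.64 CPM), BHLHE41 in double KO untreated replicate 1 (0.312 CPM), PER3 in WT untreated replicate 1 (25.6 CPM), CRY1 in DLK KO untreated replicate 2 (14.0 CPM) and CRY1 in JUN gRNA vincristine replicate 4 (17.1 CPM).

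Of 70 differences in the vincristine effect between lines or guides, 13 passed the edgeR test beside those of BHLHE40 against Control gRNA. In DLK KO minus WT they were -2.27 for BHLHE40, 1.81 for PER3 and 1.27 for NR1D1 (log2). In LZK KO minus WT they were -2.47 for BHLHE40 and 1.29 for PER3. In double KO minus WT they were -3.19 for BHLHE40, -0.50 for PER1 and 1.74 for PER3. In ATF2 gRNA minus Control gRNA they were -1.16 for BHLHE41, 0.79 for PER3 and 0.83 for DBP. In JUN gRNA minus Control gRNA there was -0.72 for BHLHE41, and in ATF2 gRNA minus JUN gRNA -1.37 for BHLHE40.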

How the results depend on the processing

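Over 200 member values and 3561 alternatives, 3327 kept their direction and side of the threshold, 99 lost and 33 gained a call, and 102 changed sign, all for 31 results that were not called. Replicate numbers did not pair the libraries: same-numbered libraries correlated at a median of 0.02 in experiment 1, with 1 of 16 pairs over 0.1, and 0 of 14 in experiment 2. With the replicate block 196 of 200 member values stayed as they were, 3 lost their call and 1 changed sign. The number of all genes called moved when only the groups compared were fitted, where fewer libraries share the estimate of spread: WT 5498 to 3529, DLK KO 1190 to 3207, LZK KO 707 to 271, double KO 12 to 1028, ATF2 gRNA 1267 to 768, LZK KO minus WT 2262 to 1082 and double KO minus DLK KO 207 to 3208. The last was 430 with DESeq2 and 536 with no filter. Leaving out single libraries gave 598 to 981 in DLK KO, 452 to 783 in LZK KO and 114 to 218 for double KO minus DLK KO. Members called in DLK KO were 2 with DESeq2, 2 with no filter, 3 with only the groups compared and 1 to 2 without single libraries. In LZK KO 0 were called with only the groups compared. For double KO minus DLK KO there was 1 with no filter and 1 with only the groups compared. For ATF2 gRNA minus JUN gRNA there were 0 with no filter, 0 with the replicate block and 0 to 1 without single libraries. Without single libraries the counts were 2 to 5 for double KO minus WT, 1 to 3 for LZK KO minus WT, 3 to 6 for untreated LZK KO and 0 to 1 in ATF2 gRNA. Beyond the fit of only the groups compared, the cause of these shifts was not tested. Sign changes under other settings were of CRY1 in the effect of ATF2 gRNA minus Control gRNA (-0.00777 with no filter, -0.01 with the replicate block), CRY1 in untreated JUN gRNA (-0.00406 with DESeq2, -0.0041 with RLE factors, -0.00592 with a filter at 1 CPM, -0.00241 with only the groups compared), CRY2 in Control gRNA (0.00362 with DESeq2, 0.00357 with RLE factors, 0.02 with a filter at 1 CPM, 0.02 with no filter), NR1D2 in ATF2 gRNA (0.000268 with DESeq2, 6.98e-05 with RLE factors, 0.00112 with a filter at 1 CPM) and PER1 in ATF2 gRNA minus Control gRNA (-0.00287 with no filter). Other results near 0 changed sign when single libraries were left out, with their lowest and highest values as follows. For BHLHE40 these ranges were -0.000512 to 0.33 (untreated double KO minus untreated WT), -0.24 to 0.43 (untreated JUN gRNA minus untreated Control gRNA). For BHLHE41 these ranges were -0.36 to 0.3 (difference in effect of double KO minus DLK KO). For CRY1 these ranges were -0.06 to 0.13 (difference in effect of ATF2 gRNA minus Control gRNA), -0.07 to 0.06 (difference in effect of double KO minus DLK KO), -0.02 to 0.03 (untreated JUN gRNA minus untreated Control gRNA), -0.13 to 0.07 (vincristine effect in ATF2 gRNA). For CRY2 these ranges were -0.14 to 0.07 (difference in effect of DLK KO minus WT), -0.18 to 0.03 (difference in effect of LZK KO minus WT), -0.03 to 0.03 (vincristine effect in Control gRNA), -0.09 to 0.01 (vincristine effect in double KO). For DBP these ranges were -0.05 to 0.31 (difference in effect of double KO minus DLK KO), -0.01 to 0.19 (untreated ATF2 gRNA minus untreated JUN gRNA), -0.27 to 0.09 (vincristine effect in double KO), -0.07 to 0.13 (vincristine effect in JUN gRNA). For NR1D1 these ranges were -0.28 to 0.1 (difference in effect of ATF2 gRNA minus JUN gRNA), -0.11 to 0.04 (vincristine effect in DLK KO), -0.17 to 0.68 (vincristine effect in LZK KO). For NR1D2 these ranges were -0.11 to 0.02 (difference in effect of JUN gRNA minus Control gRNA), -0.08 to 0.04 (vincristine effect in ATF2 gRNA), -0.01 to 0.1 (vincristine effect in double KO). For PER1 these ranges were -0.05 to 0.08 (difference in effect of ATF2 gRNA minus Control gRNA), -0.11 to 0.13 (difference in effect of DLK KO minus WT), -0.08 to 0.0062 (untreated ATF2 gRNA minus untreated Control gRNA), -0.01 to 0.07 (untreated JUN gRNA minus untreated Control gRNA), -0.2 to 0.00151 (untreated LZK KO minus untreated WT), -0.01 to 0.06 (vincristine effect in JUN gRNA). For PER2 these ranges were -0.08 to 0.15 (vincristine effect in ATF2 gRNA), -0.03 to 0.23 (vincristine effect in DLK KO). For PER3 these ranges were -0.16 to 0.01 (difference in effect of double KO minus DLK KO), -0.15 to 0.03 (vincristine effect in DLK KO). Low counts limit the precision of several levels of BHLHE40, BHLHE41 and NR1D1 in experiment 1.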
